A study of Mus musculus with 23 samples.

Results

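The guanylate-binding proteins (GBPs) and immunity-related GTPases (IRGs) were followed as a readout of interferon-gamma through mouse tumors and the cancer-associated fibroblasts (CAFs) sorted from them. The group was fixed by name: *Gbp2*, *Gbp3*, *Gbp4*, *Gbp5*, *Gbp6*, *Gbp7*, *Igtp*, *Irgm1*, *Irgm2* and *Iigp1*, which are 10 of the 24940 gene symbols in both tables. Where a symbol had several transcripts, that with the largest mean stood for it, and all 10 genes passed the filters on low values in tumors and in CAFs. The tumors grew after untreated cells of 1 of 5 C57BL/6-derived lines were injected under the skin of the flank of adult female C57BL/6 mice. The lines were B16-F10 melanoma (B16), EO771.LMB breast (EO771), LL/2 lung (LL2), MC38 colon and Pan02 pancreatic carcinoma cells, each a single line, so a model cannot be told apart from the line that founded it. RNA of a tumor fragment was sequenced from 3 tumors of each model, 15 in all. FAP+ CAFs, sorted from CD45-depleted suspensions in 2 rounds, gave 8 further libraries, 2 each from EO771, LL2, MC38 and Pan02 tumors. B16 CAFs and CT26 were not analysed here.

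GBPs and IRGs are GTPases that vertebrate cells make in large amounts when interferon-gamma, secreted mainly by T and NK cells, engages its receptor and the JAK kinases bound to it. GBPs coat the vacuoles and membranes of intracellular pathogens and help to open them to inflammasome sensing. Among the IRGs, Irgm1, Irgm2 and Igtp (Irgm3) are regulators that sit on the cell's own membranes and hold effector IRGs such as Iigp1 (Irga6) inactive there. Many cell types, fibroblasts and tumor cells included, induce these genes, so a whole-tumor level does not name the cell that made the RNA. In such bulk samples, fewer cells of a type and less RNA per cell cannot be told apart.

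The genes lie in clusters. In mm10, *Gbp5* (NM_153564, chr3:142496934-142522344), *Gbp7* (NM_145545, chr3:142530336-142550151), *Gbp3* (NM_001355403, chr3:142560044-142573213) and *Gbp2* (NM_010260, chr3:142620663-142638008) follow each other on the plus strand of chromosome 3. *Gbp4* (NM_001256005, chr5:105115767-105139586) and *Gbp6* (NM_194336, chr5:105270702-105293699) belong to a minus-strand cluster on chromosome 5. On chromosome 11, *Igtp* (NM_018738, chr11:58199556-58207592) and *Irgm2* (NM_019440, chr11:58214977-58222783) are neighbours on the plus strand and *Irgm1* (NM_008326, chr11:48865245-48871420) stands apart on the minus strand, while *Iigp1* (NM_001146275) lies on a further chromosome. These are the transcripts used for tumors, with the positions of the authors' table. Reads were counted over exons on both strands, and 70.7% of the 50-base stretches of *Gbp6* transcripts also occur in another annotated gene, mostly Gm43302, so the values of *Gbp6* are uncertain. The share was 12.7% for *Gbp7*, 11.8% for *Igtp*, whose partner is *Irgm2*, and between 0.3 and 7.8% for the other members.

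The sequences just upstream of the start sites are shown because they hold the elements through which interferons are known to act. The RefSeq promoter table (GRCm38.p6, the assembly of mm10, with 250 bases before and 50 after each start) held 7 of the 10 genes and not *Gbp4*, *Gbp6* and *Iigp1*. It was searched on both strands for the gamma-activated sequence, TTCNNNGAA (GAS), and for the core of the interferon-stimulated response element bound by ISGF3 and IRF factors, GAAANNGAA (ISRE core). The lines give 120 bases from -120 to -1, in the direction of transcription, with matches in capitals.
Gbp5: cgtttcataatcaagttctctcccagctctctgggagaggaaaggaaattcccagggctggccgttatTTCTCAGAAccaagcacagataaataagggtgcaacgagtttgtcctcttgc
Gbp7: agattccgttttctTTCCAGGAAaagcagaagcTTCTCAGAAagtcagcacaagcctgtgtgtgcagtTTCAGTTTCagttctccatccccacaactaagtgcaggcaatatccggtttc
Gbp2: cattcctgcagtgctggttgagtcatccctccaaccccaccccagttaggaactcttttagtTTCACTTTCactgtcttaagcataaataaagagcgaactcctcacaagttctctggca
Igtp: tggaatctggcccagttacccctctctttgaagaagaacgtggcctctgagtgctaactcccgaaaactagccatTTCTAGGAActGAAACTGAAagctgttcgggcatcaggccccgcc
Irgm2: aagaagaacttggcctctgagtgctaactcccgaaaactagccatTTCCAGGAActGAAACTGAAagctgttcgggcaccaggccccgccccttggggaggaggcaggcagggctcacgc
Irgm1: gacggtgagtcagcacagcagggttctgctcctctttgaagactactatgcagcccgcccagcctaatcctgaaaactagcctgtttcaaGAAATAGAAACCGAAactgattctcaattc
They are chr3:142496814-142496933, chr3:142530216-142530335 and chr3:142620543-142620662 on the plus strand, chr11:58199436-58199555 and chr11:58214857-58214976 on the plus strand, and chr11:48871421-48871540 on the minus strand. All 7 genes had an ISRE core within the 300 bases of a promoter, *Gbp5* at -164 to -156 and so outside its printed window, and *Gbp3* in the promoter of 1 of its 2 start sites. A GAS was matched in 4 of them, *Gbp5*, *Gbp7*, *Igtp* and *Irgm2*, with 2 matches each in *Gbp5* and *Gbp7*. Among all 32851 promoters of the table, 8.56% held the ISRE core, 8.3% the GAS and 1.07% both. In *Irgm1*, the ISRE core occurred 2 times with overlap, between -30 and -16. The same held for *Gbp3*, whose window is not printed, between -44 and -30. The GAS and the ISRE core of *Igtp* (-45 to -37 and -34 to -26) recurred at the same spacing in *Irgm2* (-75 to -67 and -64 to -56), and with a shift of 30 bases the 2 windows were identical at 87 of 90 positions. A match of letters is a description of the sequence and does not show that a factor was bound in these samples.

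Tumor values are CPM (counts scaled to a common library size, with TMM factors), and sums of counts ran from 10035180 to 21946495 per tumor. Tests were made with edgeR's quasi-likelihood method, each model being set against the mean of the remaining 4. Genes were called higher or lower where the adjusted p was under 0.05 and the log2 difference 1 or more in size. All these contrasts share tumors. The 5 melanocyte markers summed to 20900 to 26130 CPM in B16 tumors and to 8.67 to 30.04 CPM elsewhere, and the epithelial markers, among them *Krt8* and *Krt18*, to 2114 to 3344 CPM in Pan02. In MC38, a line of colon origin, the epithelial markers summed to only 8.39 to 61.1 CPM. LL2 tumor 3 and Pan02 tumor 2 stood apart from the other tumors of their models in every one of the 10 genes.

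All 10 genes differed among the 5 tumor models, with adjusted p-values from 0.00028 (*Irgm1*) to 0.016 (*Gbp4*) by edgeR, and did so with any 1 tumor left out. Since 91.1% of all tested genes differed by this test, the direction and size carry more than the count. Against the other 4 models, 7 genes were higher in MC38 (11.2% of tested genes were higher there and 8.23% lower), 6 were higher in B16 (13.1% higher, 19.6% lower) and 4 were higher in Pan02 (18.8% higher, 7.92% lower). In EO771 all 10 were lower (13.7% of tested genes lower, 9.71% higher), and in LL2 only *Gbp6* was (8.3% lower, 8.51% higher). The median log2 fold change of the 10 genes was 1.51 in MC38, 1.4 in B16, 1.04 in Pan02, -1.06 in LL2 and -2.28 in EO771, while the medians over all tested genes lay between -0.04 and 0.05. Without Pan02 tumor 2 the median in Pan02 was 0.11, and without LL2 tumor 3 that in LL2 was -2.34. The number called in Pan02 and LL2 rested on single tumors: without Pan02 tumor 2, 0 genes were called higher in Pan02 (edgeR, 0 at an unadjusted p under 0.05), and without LL2 tumor 3 all 10 were called lower in LL2. With both of these tumors left out together, MC38 had 10 genes higher, B16 had 7, and EO771 and LL2 each had 10 lower (edgeR). This setting was not planned. The 2 tumors were picked for their high values of these same genes, so its counts are only a description. Without B16 tumor 2, 3 genes were called higher in B16. Without LL2 tumor 3, 8 were called higher in Pan02. For LL2, 2 genes were called lower without Pan02 tumor 1 or Pan02 tumor 3, and 0 without LL2 tumor 1 or LL2 tumor 2 (edgeR, 1 at an unadjusted p under 0.05 in each case).

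**Figure D1:**
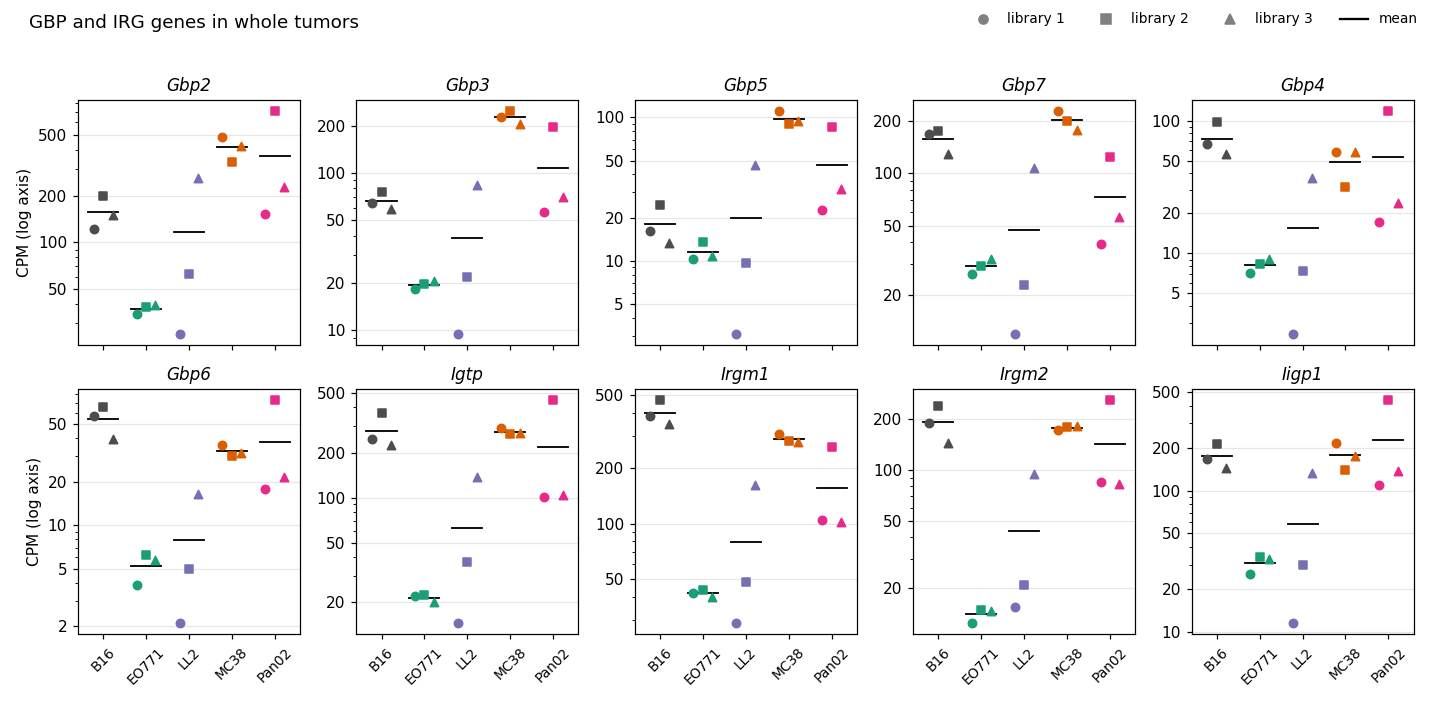
CPM of the 10 genes in 15 whole tumors, on a log axis, with 1 panel per gene, 1 point per tumor (symbols give the tumor number within the model) and a black line at the mean of the 3 tumors. EO771 tumors lie close together at low levels, and LL2 tumor 3 and Pan02 tumor 2 lie above the other tumors of their models in every panel.

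The GBP genes of chromosome 3, a cluster whose loss in mice impairs control of *Toxoplasma*, were highest in MC38. *Gbp3* was at 228, 247 and 205 CPM in the 3 MC38 tumors, at 196 CPM in Pan02 tumor 2, and between 9.51 and 84.6 CPM in the other 11 tumors. The MC38 tumors thus lay above all others, a 4.71-fold difference from the mean of the other models (log2 2.24, SE 0.41, adjusted p = 0.0005, edgeR). *Gbp5*, known for promoting assembly of the NLRP3 inflammasome, was at 110, 89.6 and 94.4 CPM in MC38, again above the 12 other tumors, which ran from 3.09 to 85.6 CPM (4.69-fold, log2 2.23, SE 0.48, adjusted p = 0.0015). *Gbp7*, linked to vacuole targeting, was at 228, 202 and 178 CPM in MC38, at 169, 176 and 130 CPM in B16 and at most 124 CPM in any other tumor. MC38 and B16 did not overlap, by a margin of a few CPM, and *Gbp7* was called higher in both (log2 1.68, SE 0.42 in MC38 and 1.23, SE 0.43 in B16, adjusted p = 0.0045 and 0.023). *Gbp2*, a GBP that coats pathogen vacuoles, was at 484, 334 and 420 CPM in MC38, but the single highest tumor was Pan02 tumor 2 with 709 CPM. The other Pan02 tumors had 153 and 230 CPM and the B16 tumors 122, 199 and 150 CPM, so that neighbours in the order of models overlapped. *Gbp2* was called higher in MC38 (log2 1.72, SE 0.47, adjusted p = 0.0079) and in Pan02 (log2 1.49, SE 0.48, adjusted p = 0.015), where the log2 difference was 0.56 without Pan02 tumor 2 (adjusted p = 0.37).

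By their means, the GBP genes of chromosome 5 followed another order, with B16 first, though neither gene passed in the direct test of MC38 against B16. *Gbp4* was at 66.2, 96.9 and 56.3 CPM in B16 and at 57.9, 31.5 and 58.3 CPM in MC38, and 118 CPM in Pan02 tumor 2 was again the highest single value. B16 was called higher (3.05-fold, log2 1.61, SE 0.56, adjusted p = 0.022), while in MC38 the log2 difference of 0.89 (SE 0.58) did not pass. *Gbp6* was at 56.7, 65.6 and 39.3 CPM in B16, at 36.0, 29.8 and 31.6 CPM in MC38 and at 17.8, 72.8 and 21.6 CPM in Pan02. The B16 tumors lay above the MC38 tumors without overlap, and LL2 and EO771 tumors stayed at 16.4 CPM or less. *Gbp6* was called higher in B16 (3.6-fold, log2 1.85, SE 0.42, adjusted p = 0.0018) and in Pan02 (log2 1.19, SE 0.44, adjusted p = 0.03) and lower in LL2 (log2 -1.62, SE 0.53, adjusted p = 0.026). For *Gbp6*, the log2 difference was 0.27 in Pan02 without Pan02 tumor 2 (adjusted p = 0.64) and -2.74 in LL2 without LL2 tumor 3 (adjusted p = 0.002).

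Among the regulatory IRGs, *Irgm1* was higher in B16 than in MC38 without overlap, and the ranges of *Igtp* and *Irgm2* overlapped. *Irgm1*, a regulator found on lysosomes and mitochondria, was at 385, 468 and 350 CPM in B16 and at 307, 282 and 278 CPM in MC38. The B16 tumors were above every other tumor, 3.62-fold over the mean of the other models (log2 1.86, SE 0.35, adjusted p = 0.00039, edgeR), and the MC38 tumors came next (log2 1.27, SE 0.36, adjusted p = 0.0094). Pan02 tumor 2 had 262 CPM, the other Pan02 tumors 105 and 102 CPM, and EO771 tumors 39.9 to 43.4 CPM. *Igtp* was at 245, 367 and 226 CPM in B16 and at 291, 267 and 271 CPM in MC38, 2 ranges that overlap. It was called higher in B16 (log2 1.56, SE 0.47, adjusted p = 0.011) and in MC38 (log2 1.54, SE 0.47, adjusted p = 0.015), and 446 CPM in Pan02 tumor 2 was the highest of the 15 values. *Irgm2* had the same order, with 190, 238 and 145 CPM in B16, 172, 179 and 180 CPM in MC38 and 257 CPM in Pan02 tumor 2. It was called higher in 3 models, B16 (log2 1.61, SE 0.4), MC38 (log2 1.47, SE 0.41) and Pan02 (log2 1.07, SE 0.42), with adjusted p-values of 0.0034, 0.008 and 0.04. Without Pan02 tumor 2, the log2 difference of *Irgm2* in Pan02 was 0.31 (adjusted p = 0.58). *Iigp1*, the effector, was at 169, 215 and 146 CPM in B16, at 218, 140 and 177 CPM in MC38 and at 109, 438 and 137 CPM in Pan02. These 3 models overlapped, and *Iigp1* was called higher in Pan02 alone (log2 1.39, SE 0.48, adjusted p = 0.023), a difference of 0.51 without Pan02 tumor 2 (adjusted p = 0.44).

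In EO771 the whole group was low and even. *Irgm2* was at 12.5, 15.03 and 14.8 CPM, below the 12 other tumors (8.53-fold lower than the mean of the other models, log2 -3.09, SE 0.56, adjusted p = 0.00043, edgeR). *Igtp* was at 22.0, 22.3 and 20.2 CPM, with only LL2 tumor 1 lower at 14.5 CPM (log2 -3.06, SE 0.65, adjusted p = 0.0014). The smallest difference was that of *Gbp5*, at 10.4, 13.6 and 10.9 CPM (log2 -1.62, SE 0.62, adjusted p = 0.04). The EO771 tumors overlapped the LL2 tumors in every gene but *Irgm2*, since LL2 tumor 1 was lower than EO771 in the other 9 and LL2 tumor 3 was higher.

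**Figure D2:**
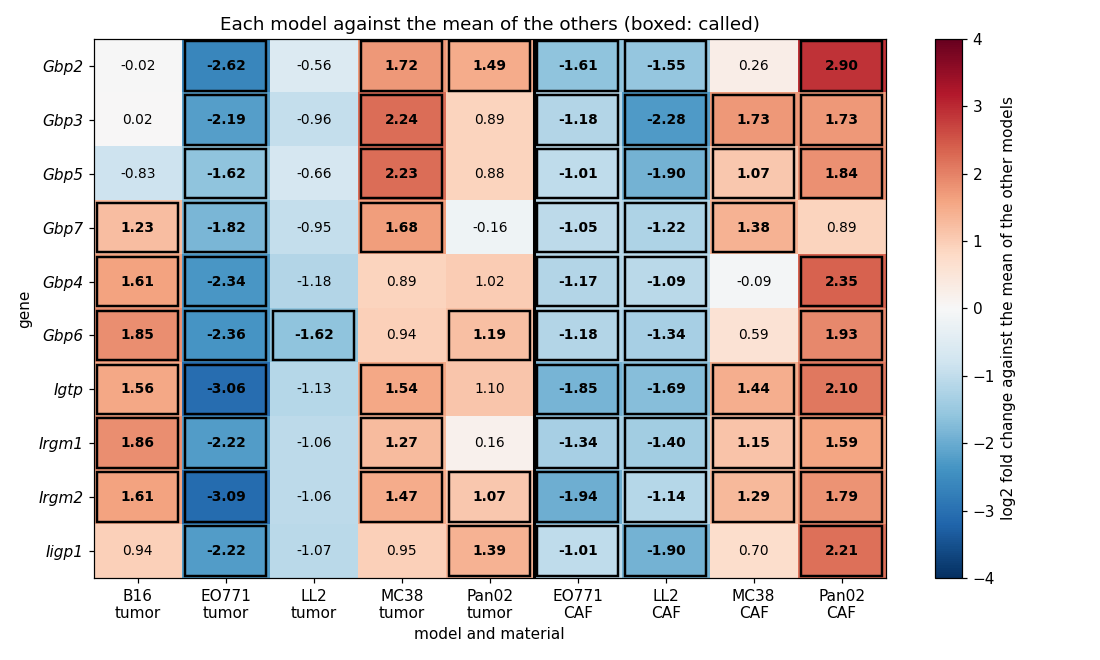
Log2 fold change of each gene (rows) in each model (columns), relative to the mean of the remaining models, for tumors by edgeR on the left and CAFs by limma on log2(RPKM + 1) on the right. Boxes mark genes called higher or lower. EO771 is called lower in all 10 genes in both materials. The median of the 10 genes is above 0 in MC38 and Pan02 in both materials, with a different share of genes called. Gbp7 in Pan02 tumors (-0.16) and Gbp4 in MC38 CAFs (-0.09) lie below 0. Without Pan02 tumor 2, the median in Pan02 tumors is 0.11 and 0 genes are called higher. LL2 is called lower in all 10 genes in CAFs but in 1 gene in tumors.

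B16 and MC38 were then set against each other, a comparison chosen after their values were seen. *Gbp5* was 5.45-fold higher in MC38 (log2 2.45, SE 0.72, adjusted p = 0.0095, edgeR), with B16 tumors at 16.2, 24.4 and 13.3 CPM. *Gbp3* was 3.41-fold higher in MC38 (log2 1.77, SE 0.6, adjusted p = 0.021), with B16 tumors at 64.3, 75.9 and 59.5 CPM. These 2 were the genes called of the 10 (19.8% of tested genes were higher in MC38 than in B16 and 14.3% lower), and without B16 tumor 1 or B16 tumor 3 only 1 was called. The log2 differences were -0.02 for *Igtp* (SE 0.65), 0.01 for *Iigp1* (SE 0.67), -0.11 for *Irgm2* (SE 0.56) and -0.47 for *Irgm1* (SE 0.49), none of which passed the test, and the first 3 of these changed sign under other settings. *Gbp4* (log2 -0.57, SE 0.77, adjusted p = 0.54) and *Gbp6* (log2 -0.73, SE 0.59, adjusted p = 0.3) did not pass either. Nor did *Gbp2* (log2 1.39, SE 0.67) and *Gbp7* (log2 0.36, SE 0.59).

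The make-up of the group can be compared within a tumor on a per-length scale (RPKM, reads scaled by transcript length and library size). The 4 IRGs took 74.5, 73.9 and 72.8% of the summed RPKM of the 10 genes in the B16 tumors and 51.2 to 60.7% in the other 12, without overlap. The chromosome 3 GBPs took 20.3 to 22.8% in B16 and 37.1 to 46.0% elsewhere. *Irgm1* alone made up 28.8 to 31.4% of the sum in B16, 18.0 to 27.3% in LL2, 22.2 to 25.3% in EO771, 17.2 to 18.7% in MC38 and 11.4 to 17.5% in Pan02. By RPKM, *Irgm1* exceeded *Gbp5* 25.1 to 34.3 times in B16, 3.63 to 4.11 times in MC38 and 4.0 to 12.2 times in the other tumors. The summed RPKM itself was 484 to 707 in B16, 654 to 774 in MC38, 260 to 1002 in Pan02, 72.2 to 80.7 in EO771 and 45.8 to 391 in LL2. The shares were described after the values were seen and were not tested.

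**Figure D3:**
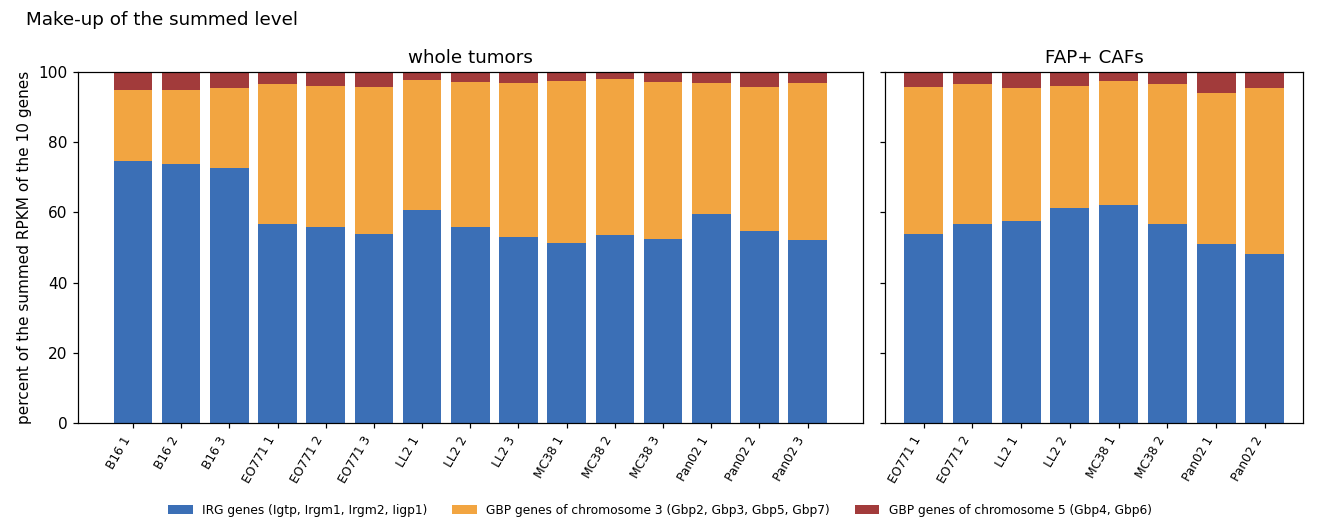
Percent of the summed RPKM of the 10 genes that came from the IRG genes, the GBP genes of chromosome 3 and the GBP genes of chromosome 5, as 1 stacked bar per library, for 15 tumors (left) and 8 CAF libraries (right). The IRG part is 72.8 to 74.5% in B16 tumors and at most 60.7% in the other tumors.

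Within LL2 and Pan02, 1 tumor carried much of the signal. LL2 tumor 3 exceeded the mean of the other LL2 tumors 4.2-fold (*Irgm1*) to 7.51-fold (*Gbp4*) over the 10 genes, with a median of 5.66. *Gbp2*, for example, was at 25.6, 62.6 and 261 CPM in LL2 tumors 1, 2 and 3. Pan02 tumor 2 exceeded the other Pan02 tumors 2.54-fold (*Irgm1*) to 5.69-fold (*Gbp4*), with a median of 3.35. By contrast, B16 tumor 2, the highest of its model in all 10 genes, exceeded the other B16 tumors by a median of 1.39, and in EO771 and MC38 no tumor was highest in more than 7 genes. The genes moved together in these tumors: in deviations from model means, Pearson's r between pairs of members ran from 0.94 to 0.99 over 15 tumors (45 pairs, a description over tumors that share models). With models left in, r ran from 0.68 (*Gbp5* with *Irgm1*) to 0.99 (*Igtp* with *Irgm2*).

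The ligand moved with the same tumors. *Ifng* was represented by 10, 38 and 21 reads in B16, 5, 1 and 5 in EO771, 1, 3 and 15 in LL2, 61.5, 58.5 and 56 in MC38, and 14.5, 43 and 13.5 in Pan02. In CPM this was 2.96, 2.9 and 3.83 in MC38 and 2.9 in Pan02 tumor 2, and at most 2.36 CPM in the other 11 tumors. *Ifng* was called higher in MC38 (log2 2.23, SE 0.49, adjusted p = 0.0019) and lower in EO771 (log2 -2.27, SE 0.74, adjusted p = 0.019, edgeR). In LL2 tumor 3, *Ifng* was 8.37 times the mean of the other LL2 tumors, which had 1 and 3 reads, and in Pan02 tumor 2 it was 3.82 times that of the other Pan02 tumors. *Cd8a*, of cytotoxic T cells, was 15.6 CPM in LL2 tumor 3 against 1.26 and 1.49, and 23.3 CPM in Pan02 tumor 2 against 3.52 and 5.43. *Ptprc*, which encodes CD45 of all leukocytes, was 124 CPM in LL2 tumor 3 against 37.8 and 51.3, and 113 CPM in Pan02 tumor 2 against 35.1 and 91.1. The 13 leukocyte markers, *Ptprc* among them, summed to 2965 CPM in LL2 tumor 3 against 1896 and 2082 CPM. In Pan02 tumor 2 they summed to 3151 CPM, between the 1314 and 4370 CPM of Pan02 tumors 1 and 3. The part of these cells in the level of the GTPases was not tested.

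**Figure D4:**
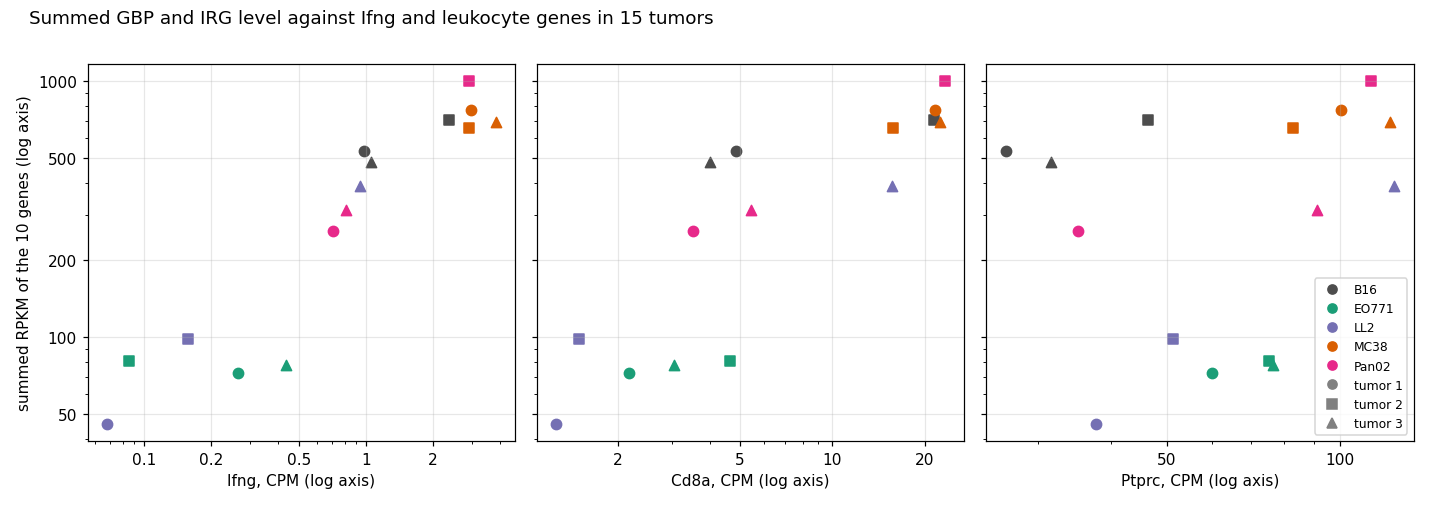
Summed RPKM of the 10 genes (vertical log axis) against CPM of Ifng, Cd8a and Ptprc (horizontal log axes) in 15 tumors, colored by model, with symbols for the tumor number. In the panel for Ifng, EO771 tumors lie low on both axes and MC38 tumors high, with Pan02 tumor 2 at the highest sum of 1002 RPKM, and the 3 B16 tumors reach 484 to 707 RPKM at Ptprc levels of 26.3 to 46.4 CPM.

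B16 tumors held less leukocyte RNA than the other tumors. The 13 leukocyte markers summed to 489 to 789 CPM in B16 and 1115 to 4370 CPM in the other tumors. Of these, 12 of 12 tested were called lower in B16, where 19.6% of all tested genes were. Against B16 alone, 9 of 12 were called higher in MC38 (median log2 1.32), as were 19.8% of all tested genes. The 13 T and NK cell markers summed to 66.6 to 154 CPM in B16, 172 to 178 CPM in MC38, 36.3 to 59.99 CPM in EO771, 26.2 to 163 CPM in LL2 and 39.7 to 176 CPM in Pan02. *Ifng* in B16 was at 0.982, 2.36 and 1.05 CPM, and its log2 difference of 0.81 (SE 0.54) from the other models did not pass. *Ifngr1*, the ligand-binding receptor chain, was at 28.2, 34.6 and 30.4 CPM in B16, below the other 12 tumors (50.7 to 176 CPM, log2 -1.43, SE 0.15, adjusted p = 2.4e-06, edgeR). *Ifngr2*, the second chain, was at 93.2 to 106 CPM in B16 and 115 to 154 CPM in Pan02, where the means of both chains were highest. For *Ifngr1*, Pan02 tumor 1 (116 CPM) lay just below LL2 tumor 3 (118.5 CPM). *Irf1*, an early target, was called higher in MC38 alone (466, 390 and 404 CPM, log2 1.58, SE 0.18, adjusted p = 8.1e-06), with 197 to 229 CPM in B16.

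Other genes of the pathway, in lists chosen with earlier results of these data known, were counted in the same contrasts. Of all tested genes, 11.2% were higher and 8.23% lower in MC38, 13.1% and 19.6% in B16, and 18.8% and 7.92% in Pan02. The shares were 9.71% and 13.7% in EO771 and 8.51% and 8.3% in LL2. Of 20 further interferon-gamma targets, 17 were called higher in MC38, among them *Ido1*, a tryptophan-degrading enzyme (21.4 to 31.8 CPM in MC38 and at most 4.66 CPM elsewhere), and 12 were called lower in EO771. In B16, 2 of them were higher and 6 lower, the highest log2 difference being that of the immunoproteasome gene *Psmb9* (1.25) and the lowest that of *Ido1* (-2.74). In LL2, 3 of these targets were higher and 5 lower, in Pan02 2 were higher and 1 lower, and in EO771 1 was higher. Of 18 tested type I interferon genes and targets, 15 were higher in MC38 and 4 in B16. In turn, 11 were lower in EO771, 7 in Pan02, 1 in B16 and 1 in LL2. *Rsad2*, which encodes the antiviral protein viperin, was at 377 to 638 CPM in MC38, 84.6 to 170 CPM in B16 and 7.55 to 19.1 CPM in Pan02. Of 17 other GBP and IRG genes tested, 9 were higher in MC38, 6 in Pan02 and 4 in B16. In turn, 11 were lower in EO771, 3 in LL2, 2 in B16 and 1 in MC38. *Gvin1* and *Gm4070* had the same counts in all 15 tumors, so they are a single measurement that stands 2 times among the 6 and among the 11. *Gm12250* (Irgb10) was highest in MC38 at 97.9 to 113 CPM, *Gbp10* highest in B16 and in Pan02 tumor 2 (6.14 to 14.9 CPM and 13.6 CPM), and *Irgc1* was the 1 gene called higher in EO771, at 0.959 to 1.53 CPM. Of 16 ligand, receptor and signalling genes, 5 were higher in MC38, 5 in Pan02, 1 in B16 and 1 in LL2. In turn, 6 were lower in EO771, 3 in B16 and 2 in LL2.

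Among the tested genes that are no member, 4 are named whose pattern over the 15 tumors was among the 5 most like the mean of the group, by Pearson's r of log2(CPM + 1). They were *Ifi47* (r = 0.99), which encodes the IRG protein Irgd, *Batf2* (0.984), an interferon-induced transcription factor, *H2-Q4* (0.971), a class I-like MHC gene, and the IRG-related *Gm4951* (0.971). *Ifi47* was at 168 to 179 CPM in MC38, 114 to 161 CPM in B16, 49.6 to 161 CPM in Pan02, 8.09 to 77.6 CPM in LL2 and 18.4 to 22.7 CPM in EO771. In deviations from model means these 4 had r between 0.926 and 0.98. With models left in, *Ifng* had r = 0.916, *Irf1* 0.909 and *Ptprc* 0.291, and in deviations from model means *Ifng* had 0.829, *Irf1* 0.919 and *Ptprc* 0.843. Type I interferon targets varied, with *Ifit3* at 0.97, above *Ifng*, and *Rsad2* at 0.616 with models left in. In deviations from model means *Ifit3* had 0.928 and *Rsad2* 0.855. Which interferon set the levels was not tested. The tumors of a model are not independent in this measure.

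In FAP+ CAFs, the authors' RPKM were tested as log2(RPKM + 1) with limma, in contrasts of a model with the mean of the remaining 3 and with the same thresholds. The 9 fibroblast markers summed to 8980 to 9733 RPKM in EO771 CAFs and 7011 to 8254 RPKM in LL2 CAFs. The sums were lower in Pan02 CAFs (3880 and 2386 RPKM) and in MC38 CAFs (6551 and 1530 RPKM). *Fap*, *Thy1* and *Col3a1* were called lower in Pan02 CAFs, and *Dcn* and *Lum* in MC38 CAFs. *Ptprc* was at 0.947 RPKM or less, and *Ifng* at 0.24 RPKM or less and at 0 in 5 of the 8 libraries. EO771 CAFs held more leukocyte RNA than the rest, with a marker sum of 117 to 143 RPKM against 8.9 to 23.7. Epithelial markers summed to 832 to 1121 RPKM in Pan02 CAFs, mostly *Krt8* and *Krt18*, 494 to 500 RPKM in EO771, 200 to 209 RPKM in LL2 and at most 3.73 RPKM in MC38. In EO771 CAFs, *Krt8* was called higher and *Krt18*, *Krt19* and *Cdh1* lower. The part of the fibroblast, leukocyte and epithelial markers in the results was not tested. All 10 genes differed among the 4 CAF models (adjusted p from 5.9e-05 for *Gbp2* to 0.0016 for *Gbp4*, limma), as did 80.4% of all tested genes.

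Pan02 and MC38 CAFs were high in the group and EO771 and LL2 CAFs low. In Pan02, 9 genes were called higher (9.73% of tested genes higher, 8.41% lower), all but *Gbp7*, and in MC38 6 were (10.9% higher, 9.87% lower), namely *Gbp3*, *Gbp5*, *Gbp7*, *Igtp*, *Irgm1* and *Irgm2*. All 10 were lower in EO771 CAFs (7.06% lower, 8.05% higher) and all 10 in LL2 CAFs (5.13% lower, 3.89% higher). The medians of the log2 difference were 1.89 in Pan02, 1.11 in MC38, -1.18 in EO771 and -1.47 in LL2, and those of all tested genes between -0.03 and 0.0. With libraries left out, 6 genes were called lower in EO771 without EO771 CAF 1, 5 without EO771 CAF 2 and 6 without Pan02 CAF 1, and 6 were called lower in LL2 without either of its libraries. Where that leaves a model with 1 library, this library is assumed to vary like those of the other models, and fewer samples enter the test.

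**Figure D5:**
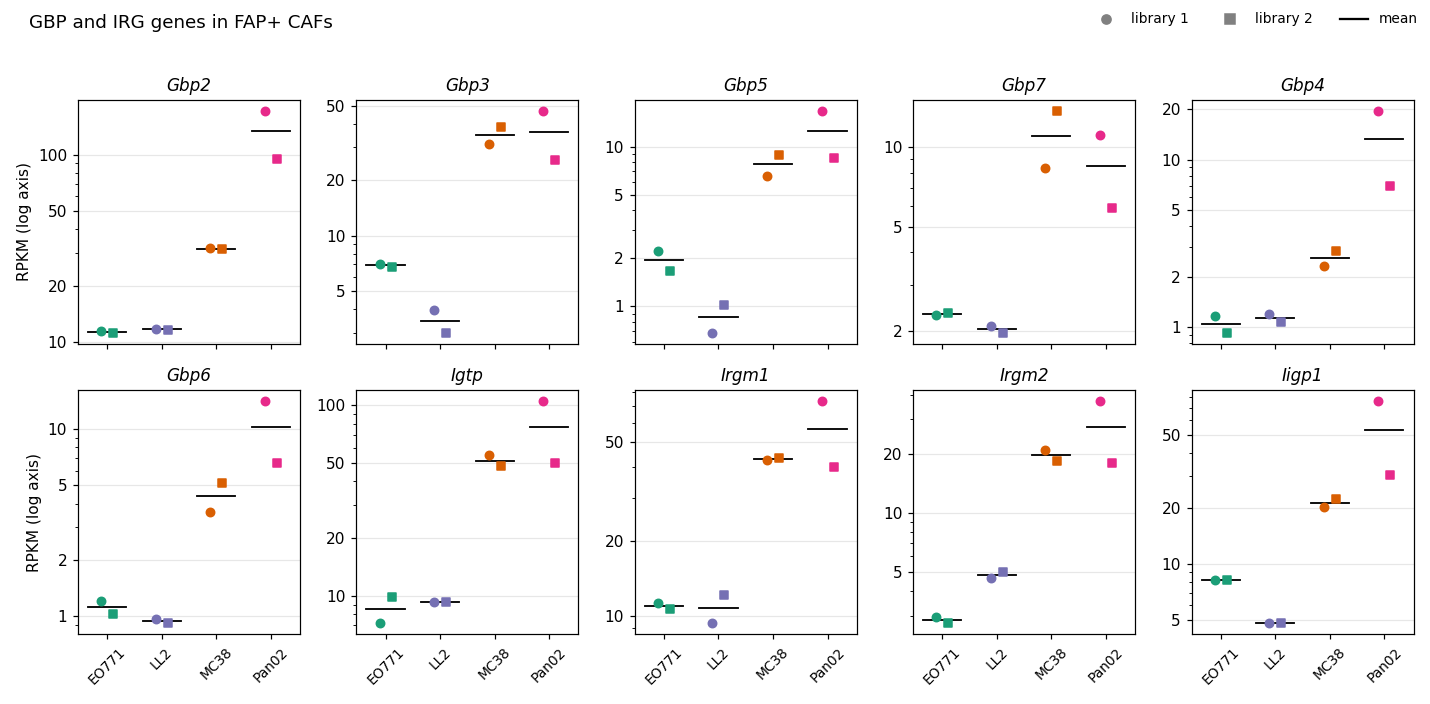
RPKM of the 10 genes in 8 libraries of FAP+ CAFs, on a log axis, with 1 panel per gene, 1 point per library and a black line at the mean of the 2 libraries of a model. Both Pan02 and both MC38 libraries lie above all EO771 and LL2 libraries in every panel.

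*Gbp2* separated Pan02 CAFs most. It was at 171 and 95.3 RPKM in Pan02, 31.8 and 31.2 RPKM in MC38, 11.5 and 11.2 RPKM in EO771, and 11.8 and 11.7 RPKM in LL2, without overlap between Pan02 and the others (log2 2.9, SE 0.2, adjusted p = 2.8e-05, limma). *Gbp4* was at 19.5 and 6.94 RPKM in Pan02 and at most 2.87 RPKM elsewhere (log2 2.35, SE 0.31, adjusted p = 0.00073). *Iigp1* was at 75.8 and 30.4 RPKM in Pan02, 20.4 and 22.4 RPKM in MC38, 8.16 and 8.23 RPKM in EO771, and 4.79 RPKM in both LL2 libraries (log2 2.21, SE 0.29, adjusted p = 0.00066). In these 3 genes and in *Gbp6* (14.0 and 6.58 RPKM against 3.59 and 5.17), Pan02 also exceeded MC38 in the direct comparison, which was chosen after the values were seen. There the log2 differences were 1.98 for *Gbp2* (SE 0.24), 1.83 for *Gbp4* (SE 0.38), 1.14 for *Iigp1* (SE 0.35) and 1.0 for *Gbp6* (SE 0.31), with adjusted p-values of 0.00037, 0.0048, 0.026 and 0.024 (15.3% of tested genes were higher in Pan02 CAFs and 14.5% lower). Without Pan02 CAF 1 or without MC38 CAF 1, 2 genes were called.

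The ranges of Pan02 and MC38 CAFs overlapped in the other members. *Gbp3* was at 47.2 and 25.8 RPKM in Pan02 and 31.4 and 38.6 RPKM in MC38 (log2 difference 0.0, SE 0.27). *Gbp7* was the 1 gene with a higher mean in MC38, at 8.37 and 13.7 RPKM against 11.1 and 5.87 in Pan02 (log2 -0.36 for Pan02 minus MC38, SE 0.3, adjusted p = 0.33). *Igtp* (105 and 49.9 against 54.7 and 47.8 RPKM), *Irgm1* (73.1 and 39.9 against 42.5 and 43.4 RPKM) and *Irgm2* (37.0 and 17.9 against 20.9 and 18.5 RPKM) overlapped. Pan02 CAF 1 exceeded Pan02 CAF 2 in all 10 genes, 1.79-fold (*Gbp2*) to 2.81-fold (*Gbp4*), with *Irf1* 2.59 times higher, while *Ptprc* was at 0.09 and 0.092 RPKM. Other markers moved between these libraries as well: the fibroblast markers summed to 3880 and 2386 RPKM, with *Col1a1* 1.93 times and *Thy1* 2.11 times higher in Pan02 CAF 1 and *Pdgfra* at 0.67 and *Dcn* at 0.66 times its level in Pan02 CAF 2. The epithelial markers summed to 832 and 1121 RPKM, and the endothelial *Kdr* was at 1.04 and 0.299 RPKM. Their part in the difference was not tested.

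The pathway differed between the 2 models that were high. Of all tested genes, 15.3% were higher and 14.5% lower in Pan02 than in MC38 CAFs. Against the other models, 9.73% were higher in Pan02 CAFs and 10.9% in MC38 CAFs. *Ciita*, the regulator of MHC class II genes, was at 5.55 and 2.1 RPKM in Pan02 CAFs and at most 0.126 RPKM in the other 6 libraries (log2 2.06, SE 0.25, adjusted p = 0.00048). *Jak2*, a kinase of the receptor, was at 31.5 and 30.8 RPKM in Pan02 and 6.78 and 6.04 RPKM in MC38 (log2 2.12 for Pan02 minus MC38, SE 0.13, adjusted p = 1.7e-05, limma). *Ifngr2* was higher in Pan02 than in MC38 too (log2 1.23, SE 0.23, adjusted p = 0.003, limma). Of 15 tested ligand, receptor and signalling genes, 4 were higher in Pan02 than in MC38 CAFs, *Ciita*, *Jak2* and *Ifngr2* among them, and 2 were lower. Most type I interferon targets had the opposite order to *Ciita*, *Jak2* and *Ifngr2*. Of 18 tested, 15 were lower and 1 higher in Pan02 than in MC38 CAFs, 15 were called higher in MC38, and *Isg15*, a ubiquitin-like protein, was at 492 and 331 RPKM in MC38 and 26.1 and 19.8 RPKM in Pan02 (log2 -4.09, SE 0.28, adjusted p = 2.9e-05). Of 18 tested further interferon-gamma targets, 9 were lower and 1 higher in Pan02 than in MC38 CAFs, *Cxcl10* (208 and 204 against 41.0 and 17.9 RPKM) being the lowest. Of 10 tested other GBP and IRG genes, 6 were higher in Pan02 and 3 in MC38, against the other models, with *Gbp9* at 19.0 and 7.21 RPKM in Pan02, 6.0 and 9.01 RPKM in MC38 and 1.46 to 1.58 RPKM in EO771 and LL2. *Gbp9* was also the gene most like the mean of the group over the 8 CAF libraries (r = 0.993), followed by *Inpp5j*, an inositol phosphatase (0.988), *Tgtp2* (Irgb6, 0.986) and *Tmem167* (0.985), which are 4 of the 5 most alike, as a description over libraries that share models.

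Tumor and CAF levels can be given side by side in RPKM, without a test, since the tables were normalized separately and 5 genes were represented by another transcript in the CAF table. In MC38, the tumors lay above the CAFs in all 10 genes, as in *Gbp2* (137 to 198 against 31.2 to 31.8 RPKM) and *Gbp5* (29.8 to 36.7 against 6.58 to 8.93 RPKM). In Pan02, tumors and CAFs overlapped in all 10, as in *Gbp2* (62.7 to 291 against 95.3 to 171 RPKM) and *Iigp1* (35.0 to 140 against 30.4 to 75.8 RPKM). In EO771, 7 genes were higher in tumors without overlap, by small steps such as 17.3 to 18.9 against 10.7 to 11.3 RPKM in *Irgm1*. In LL2, 3 genes did not overlap, *Gbp5*, *Gbp7* and *Irgm1*, the tumors being higher by narrow margins such as 2.12 to 19.1 against 1.98 to 2.11 RPKM in *Gbp7*. With the longest transcript in both tables these counts were 10, 10, 8 and 3. The same counts were not made over all genes, so they cannot be read as particular to this group.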

How the data were processed

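RNA of 15 whole tumors and 8 libraries of FAP+ CAFs was analysed, in the groups of the labels. The tumor table that the authors deposited holds expected counts in steps of 0.5 for RefSeq transcripts, made with STAR 2.5.0c on mm10 and HOMER over exons (polyA RNA, libraries without strand). For CAFs, the authors deposited RPKM from the same steps. How reads that map to several places were treated is not given in the sources used here. The 5 columns of samples without labels, and fold changes or p-values made by others, were not used. The 2 rows that name no gene were dropped, and each symbol kept its transcript with the largest mean.

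Tumor counts were rounded up, passed through filterByExpr (15732 genes left) and TMM scaling, and modelled by edgeR 4.0.16 with a term for each model and its quasi-likelihood test. For CAFs, limma 3.58.1 with a variance trend was run on log2(RPKM + 1) of the 13598 genes that reached 1 RPKM in 2 or more libraries. P-values were adjusted by Benjamini-Hochberg over all tested genes. Levels between genes were compared per kilobase. CAF read depth is not given by the RPKM. Labels do not say that libraries of a model came from separate animals beyond being separate tumors or sorts, so p-values measure the spread between these samples. Alternatives were DESeq2 1.42.0, total-count scaling, no filter, doubled counts, a pseudocount of 0.1, a median of ratios, the longest transcript, a replicate block and leaving out each library. Leaving out LL2 tumor 3 and Pan02 tumor 2 together was added after their values were seen. Scripts were tested on simulated data. Tables and plots were made with pandas 2.3.3 and matplotlib 3.10.9 under Python 3.11.15, and models were run in R 4.3.3. By rule, the text names the 10 members, *Ifng*, its receptor chains, *Irf1*, up to 4 genes of each list with the highest or lowest log2 difference where most members were called, the 5 genes most like the group in each table, and markers. A further gene that the rule names is not reported here. *Ciita*, *Jak2*, *Psmb9*, *Rsad2*, *Ifit3*, *Isg15*, *Cxcl10*, *Gm12250*, *Casp1*, *Casp4*, *Gvin1*, *Gm4070* and the markers that moved between Pan02 CAF libraries fall outside it and were chosen after their values were seen. The members and lists were chosen with earlier results of these data known.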

Additional observations from a re-analysis of the deposited data

How the results depend on the processing

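All 10 genes differed among models in tumors and in CAFs under every setting tried. Counts of members called moved by more than 1.5 times as follows. In LL2 tumors, 2 were lower with DESeq2, without the low-count filter or with the longest transcript, and 10 with LL2 tumor 3 and Pan02 tumor 2 left out together, against 1. In Pan02 tumors, 2 were higher with the replicate block and 0 with those tumors left out together, against 4. In the comparison of Pan02 with MC38 CAFs, 2 were higher without the low-value filter, against 4. With each library left out in turn, the counts ran from 3 to 7 (higher in B16), 7 to 10 (lower in EO771), 0 to 10 (lower in LL2), 7 to 10 (higher in MC38), 0 to 8 (higher in Pan02, 8 without LL2 tumor 3) and 1 to 3 (MC38 over B16) in tumors. In CAFs they ran from 5 to 10 (lower in EO771), 6 to 10 (lower in LL2), 5 to 6 (higher in MC38), 9 to 10 (higher in Pan02) and 2 to 6 (Pan02 over MC38). Calls of 0 came from edgeR, with 0 members higher in Pan02 at an unadjusted p under 0.05 without Pan02 tumor 2 and 3 without both tumors, and 1 and 1 lower in LL2 without LL2 tumor 1 and LL2 tumor 2. The cause was not tested.

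No log2 difference that was called changed sign. Among those not called, *Gbp2* in B16 was 0 with the longest transcript, 0.01 with the replicate block and 0.55 without LL2 tumor 3 and Pan02 tumor 2, which also gave -0.19 for *Irgm1* in Pan02. In MC38 against B16, total-count scaling gave 0.11 for *Igtp* and 0.02 for *Irgm2*, the replicate block 0.04 for *Igtp*, and the longest transcript -0.03 for *Iigp1*. A pseudocount of 0.1 RPKM gave 0.07 for *Gbp4* in MC38 CAFs. With single tumors left out, *Gbp2* in B16 ran from -0.23 to 0.33, *Gbp3* in B16 from -0.08 to 0.35, *Gbp4*, *Gbp7* and *Irgm1* in Pan02 from -0.33 to 1.43, -0.77 to 0.2 and -0.44 to 0.42, and *Igtp*, *Irgm2* and *Iigp1* in MC38 against B16 from -0.15 to 0.23, -0.27 to 0.08 and -0.16 to 0.18. With single CAF libraries left out, *Gbp4* in MC38 ran from -0.32 to 0.14, and in Pan02 against MC38 *Gbp3* ran from -0.42 to 0.43, *Gbp7* from -0.77 to 0.05, *Igtp* from -0.04 to 1.02, *Irgm1* from -0.1 to 0.75 and *Irgm2* from -0.13 to 0.88. Total-count scaling moved the median of all genes by 0.14 in MC38 and -0.12 in Pan02. Deviations of libraries of different models had a median r of 0.03 (-0.17 to 0.26) with equal and 0.01 with other replicate numbers in tumors, and of 0.11 (-0.14 to 0.28) and -0.11 (-0.28 to 0.14) in CAFs. With 2 CAF libraries per model, deviations from the model mean mirror each other. The CAF values for other numbers are thus those for equal numbers with the sign reversed. Not every pair was above 0.1, so the numbers were not taken to pair the samples. Still, 5 of 15 tumors and 6 of 8 CAF libraries were closest to a library with their own number. For the same reason, the 2 CAF libraries of a model do not count separately there. Counts of *Ifng* from 1 to 5 reads in EO771 and in 2 LL2 tumors limit what its levels there can show.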

Other observations

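Of 11 inflammasome and pyroptosis genes, 6 were lower and 1 higher in B16 tumors, where 19.6% of all tested genes were lower and 13.1% higher. The median log2 difference was -1.29 for this list and -1.4 for the leukocyte markers, of which 12 of 12 tested were lower in B16, and the part of leukocytes in the list was not tested. *Aim2*, a DNA sensor, was at 1.33 to 2.15 CPM in B16 against 12.5 CPM or more in the other tumors (log2 -3.64, SE 0.2, adjusted p = 3.7e-09, edgeR). *Pycard*, the adaptor ASC, was the gene of this list that was higher in B16, at 62.4 to 68.1 CPM against at most 35.4 CPM elsewhere (log2 1.82, SE 0.28, adjusted p = 8.5e-05). In MC38 tumors, 3 of the 11 genes were higher and 1 lower, with a median log2 difference of 0.07 (11.2% of all tested genes higher, 8.23% lower). There *Casp1* was at 64.3 to 74.5 CPM and at most 42.1 CPM elsewhere (log2 2.34, SE 0.19, adjusted p = 5.7e-07, edgeR). *Casp4*, the sensor of cytosolic lipopolysaccharide, was at 41.5 to 43.6 CPM in MC38 and at most 18.7 CPM elsewhere (log2 1.9, SE 0.27, adjusted p = 6.2e-05, edgeR). Of the 8 genes of this list tested in CAFs, 2 were higher and 2 lower in MC38 (median -0.06), as in Pan02 (median 0.68). Of all tested genes, 10.9% were higher and 9.87% lower in MC38 CAFs, and 9.73% and 8.41% in Pan02 CAFs. In CAFs, *Casp4* was at 32.6 and 33.4 RPKM in MC38 and 5.57 and 6.91 RPKM in Pan02 (log2 -2.24 for Pan02 minus MC38, SE 0.15, adjusted p = 2.7e-05, limma), while *Casp1* was at 26.9 and 39.8 RPKM in MC38 and 24.8 and 24.5 RPKM in Pan02 and was called higher in both against the other models (log2 1.55 and 1.03, SE 0.15, adjusted p = 0.00015 and 0.0011).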
